A study of Homo sapiens with 4 samples.

Results

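UBE2K, which encodes a ubiquitin-conjugating enzyme, was examined with 9 other genes that carry such an enzyme domain: UBE2H, UBE2E1, UBE2E2, UBE2E3, UBE2D3, UBE2G1, UBE2J1, UBE2W and BIRC6. The measurements were peaks of ADAR binding from enhanced crosslinking and immunoprecipitation (eCLIP), in which RNA crosslinked to a protein is recovered with an antibody and sequenced beside an input library. A peak cluster belonged to a gene when its midpoint lay in the RefSeq span of that gene, on the strand of the gene. By this rule the 10 genes held 1337 of the 534161 clusters of replicate 1, 531 of the 155848 clusters of replicate 2, and 12 of the 1717 peaks in the list that the authors made from both replicates, called the reproducible list here. The genes were chosen by results of these same lists, above all the count of enriched clusters that UBE2K had in replicate 2, so their counts are a description and carry no test.

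There were 2 immunoprecipitated (IP) libraries, from an ADAR1 antibody, and 2 libraries of input RNA, with replicate numbers 1 and 2 in each group. All came from K562, a human chronic myeloid leukaemia line that the labels call a lymphoblast cell, with no treatment. Crosslinking, per the labels' protocols, used ultraviolet light of 254 nm at 400 mJ/cm2, RNA was cut with RNase I, and a gel region 75 kDa above the protein was taken. Separate cultures are not stated for the replicates, and what differs between them may be technical. Their protocols also describe HepG2, a hepatocyte-like line. Clusters lay in 14 of 14 K562 and erythroid marker genes, in 0 of 10 hepatocyte marker genes and in 2 of 5 markers of other blood cells.

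Ubiquitin is passed from an activating enzyme (E1) to a conjugating enzyme (E2) and then, with a ligase (E3), to a target protein. The E2 often decides which kind of ubiquitin chain is built. ADAR turns adenosines of double-stranded RNA into inosines, and in human transcripts such RNA often forms within introns and untranslated regions where repeats lie in opposite orientations. Exons and introns were not assigned here, since the annotation used gives gene spans alone.

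Each deposited cluster carries the authors' log2 fold of IP over input and their −log10 p. Both are the authors' values, one per cluster. Clusters were called enriched when the log2 fold and the −log10 p both reached 3. Library totals are unknown here, but the IP and input reads behind single clusters could be worked out from the pair of values. They are given below with an exact 95% interval of the fold, which covers counting error only. A recovered input of 1 read may stand for 0 reads.

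The replicates differed in depth and in fold across the whole series. If the commonest fold stands for 3 IP reads over 1 input read, IP depth was 3.33 times input depth in replicate 1 and 0.553 times in replicate 2. The recovered reads rest on the same reading. Replicate 1 clusters had a median log2 fold of 0.07, and replicate 2 clusters one of 1.85. At 1 input read, an enriched cluster had at least 37 IP reads in replicate 1 and at least 9 in replicate 2. The same rule therefore asked for more IP reads in replicate 1.

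The only regions of the 10 genes for which both clusters and a reference sequence were at hand were promoter windows and 1 microRNA hairpin. RefSeq windows of 250 bases before to 50 bases after a gene start were found for 8 of the 10 genes, 18 windows in all. UBE2K had 1 window, and it held no cluster. Replicate 1 clusters lay in 3 windows, all among the 6 of UBE2D3, and no window held a replicate 2 cluster. One of these windows, at an internal start of UBE2D3 on the minus strand of GRCh38.p14 (chr4:102826809-102827108), is shown because it held 4 of the 6 clusters. Capitals mark the cluster with the highest fold there, positions 102826906 to 102826983.
UBE2D3 internal promoter window: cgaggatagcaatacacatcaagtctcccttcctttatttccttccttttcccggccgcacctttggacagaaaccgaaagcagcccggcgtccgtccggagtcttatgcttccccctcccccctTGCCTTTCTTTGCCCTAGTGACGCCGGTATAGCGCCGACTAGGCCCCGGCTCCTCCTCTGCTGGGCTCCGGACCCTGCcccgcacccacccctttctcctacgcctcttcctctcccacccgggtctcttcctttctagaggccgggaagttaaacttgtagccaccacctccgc
That cluster had 61 IP reads against 6 input reads, a log2 fold of 1.61 (95% interval 0.41 to 3.11) and a −log10 p of 2.04. The other clusters in the window had log2 folds of 0.67, 0.94 and 1.34. None of the 4 was enriched.

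MIR558, a microRNA gene inside BIRC6 at chr2:32532153-32532246 on the plus strand, is shown because both replicates placed clusters on its hairpin. Capitals in the hairpin mark the bases inside the replicate 2 cluster, and capitals in the mature sequence mark its seed, bases 2 to 8. Both sequences are RefSeq's, build GRCh38.p14.
MIR558 hairpin: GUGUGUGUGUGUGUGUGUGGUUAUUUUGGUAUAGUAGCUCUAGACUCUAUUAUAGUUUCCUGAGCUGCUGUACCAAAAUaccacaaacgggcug
hsa-miR-558: uGAGCUGCuguaccaaaau
Replicate 1 had log2 folds of −0.38 and 1.85 on the hairpin, the second with 24 IP reads against 2 input reads. The replicate 2 cluster covered 79 of the 94 bases with 8 IP reads against 10 input reads, a log2 fold of 0.53 (95% interval −1.01 to 2.02). The hairpin thus held no enriched cluster in either replicate.

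UBE2K builds ubiquitin chains linked through lysine 48, the kind that directs proteins to the proteasome. Its gene spans chr4:39698136-39782792 on the plus strand, 84657 bases. Replicate 1 had 217 clusters in it with a median log2 fold of 0.17, and 10 were enriched. That is 4.61% of them (exact 95% interval 2.23 to 8.31), beside 1.39% of all clusters of the replicate. Replicate 2 had 128 clusters with a median log2 fold of 2.13, and 46 were enriched, or 35.9% (interval 27.7 to 44.9) beside 12.8% of all clusters. Clusters of a gene are not independent, so these intervals are too narrow. The reproducible list had 9 peaks in UBE2K, with log2 folds up to 5.09, and 3.67% of the 15441 genes with a cluster had any such peak. With touching intervals merged, the enriched clusters came to 6 sites in replicate 1 and 32 in replicate 2, and the 9 peaks to 5 sites.

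The share in UBE2K was the highest among the 117 genes with at least 100 replicate 2 clusters, whose median share was 13.3%. UBE2K was chosen for its replicate 2 count, so this rank is a description. The rank also depends on the cutoff of 100 clusters. MED15, with 77 replicate 2 clusters, had 33 enriched, a higher share than UBE2K. In replicate 1 UBE2K ranked 77 of 1282 genes with at least 100 clusters, whose median share was 0.539% and highest 35.5%. The threshold on p decided few of these calls, since 12 replicate 1 clusters and 47 replicate 2 clusters of UBE2K reached a log2 fold of 3. The gene held no cluster on the opposite strand in either replicate.

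**Figure D1:**
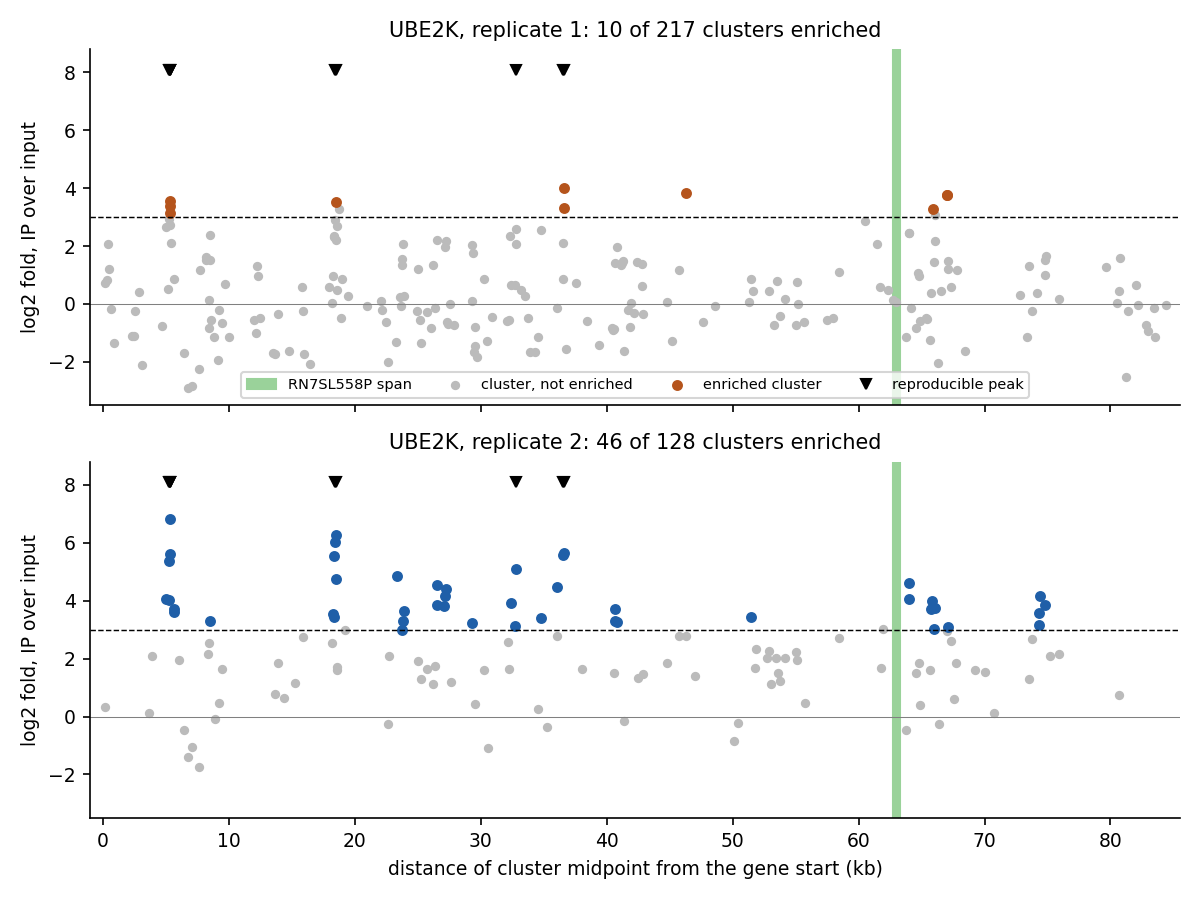
Log2 fold of IP over input (vertical axis) for each UBE2K cluster against its distance from the gene start in kb (horizontal axis), replicate 1 above and replicate 2 below. Coloured points are the 10 and 46 enriched clusters, grey points the others, triangles the 9 reproducible peaks (several overlap at this scale), the dashed line a log2 fold of 3 and the green band the RN7SL558P span.

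Enriched clusters of UBE2K were joined where they lay within 1 kb of each other, which gave 15 stretches. Both replicates contributed to 4 of them, replicate 2 alone to 10 and replicate 1 alone to 1. None lay in the first 3 kb of the gene, where replicate 1 had 10 clusters and replicate 2 had 1. None lay in the last 3 kb either, where replicate 1 had 7 clusters, at log2 folds between −1.15 and 0.65, and replicate 2 had none. The enriched clusters were thus inside the gene, as were 200 of its 217 clusters in replicate 1 and 127 of its 128 in replicate 2.

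The first shared stretch lay 4.99 to 5.67 kb from the gene start (chr4:39703107-39703821) and held 4 of the 9 reproducible peaks. Its summit in replicate 2, at 39703437 to 39703465, had 124 IP reads against 2 input reads, a log2 fold of 6.81 (95% interval 4.93 to 9.87). A touching pair of replicate 1 clusters lay under it, with 174 IP reads against 5 input reads (3.39) and 194 against 5 (3.54). The pair may share reads. The reproducible peak there, at 5.09, had the highest fold of the 9. On either side of the summit, replicate 2 had 4.02 at 5.24 kb (72 IP reads against 8 input reads) and 3.72 at 5.67 kb (51 against 7). In replicate 1 the cluster at 5.24 kb had a log2 fold of 2.95 and that at 5.67 kb had 0.85, so neither was enriched there.

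The second shared stretch, 18.27 to 18.54 kb from the start, held 2 reproducible peaks at log2 folds of 4.92 and 4.93. Replicate 2 reached 6.26 at 39716605 to 39716656, with 85 IP reads against 2 input reads, and 6.04 in the cluster beside it, with 73 against 2. Replicate 1 had 1 enriched cluster there, at 3.51 with 152 IP reads against 4 input reads. The enriched clusters of both replicates overlapped there, and the fold was higher in replicate 2.

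The third shared stretch, 36.06 to 36.64 kb from the start, held the highest UBE2K cluster of replicate 1. This was 39734741 to 39734812, with 214 IP reads against 4 input reads and a log2 fold of 4.01 (95% interval 2.63 to 5.90). Replicate 2 had 166 IP reads against 6 input reads over 39734736 to 39734800, a log2 fold of 5.64 (4.49 to 7.11). It had 187 against 7 in the next cluster, at 5.59. The intervals of the 2 replicates overlapped at this place. A replicate 2 cluster at 36.06 kb, with 37 IP reads against 3 input reads (4.48), had only a cluster at −0.15 beneath it in replicate 1.

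The fourth shared stretch, 65.77 to 67.13 kb from the start, held no reproducible peak. Replicate 2 had 5 enriched clusters there, the highest at 3.98 with 35 IP reads against 4 input reads. Replicate 1 had 3, one at 3.29 with 65 IP reads against 2 input reads, and a touching pair at 3.76 with 45 against 1 in each, which may be the same reads. The replicate 2 cluster paired with that place had a log2 fold of 2.97, just under the threshold. RN7SL558P, a pseudogene of the 7SL RNA, lies 62.86 to 63.16 kb from the start (chr4:39761000-39761298). No enriched cluster overlapped it, and the nearest lay 833 bases away, in replicate 2.

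Of the places enriched in 1 replicate alone, 46.33 kb was the one led by replicate 1. It had 332 IP reads against 7 input reads there, a log2 fold of 3.83 (95% interval 2.77 to 5.16), and replicate 2 had 2.78 at the same place with a −log10 p of 9.11. The stretch at 32.38 to 32.79 kb was enriched in replicate 2 alone and still held a reproducible peak, at 3.97. Replicate 2 had 94 IP reads against 5 input reads in that peak (5.09), while replicate 1 had 98 against 7 (2.07) and 120 against 6 (2.59). Replicate 1 was thus above input at that place and below the threshold. In the stretch at 74.30 to 74.82 kb, 3 of the 4 enriched replicate 2 clusters had no replicate 1 cluster beneath them.

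Across all 46 enriched replicate 2 clusters of UBE2K, 42 were overlapped by a replicate 1 cluster, or 91.3%. That share was 88.4% over all enriched replicate 2 clusters. The highest replicate 1 fold under the 42 had a median of 2.17. It was above 0 in 41 cases and at least 2 in 25, for which no count over the whole series is given. It was enriched in 8, or 17.4% of the 46, beside 14.0% over the series. Both overlap shares of UBE2K were thus close to the background. The other 9 genes had 48 enriched replicate 2 clusters. Of these, 42 (87.5%) were overlapped by a replicate 1 cluster, with a median of 1.68, and 4 (8.33%) were enriched there. Among the 9 reproducible peaks of UBE2K, replicate 2 had an enriched cluster under 9 and replicate 1 under 7, and the fold was higher in replicate 2 in 9. All 1717 peaks of that list met the same thresholds, and the 9 merge into 5 sites. Across the series too, the median log2 fold was higher in replicate 2, at 1.85 against 0.07 in replicate 1. No such counts over all reproducible peaks are given.

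Clusters of the replicates were paired where each was the other's best overlap. UBE2K gave 89 pairs, with a median log2 fold of 2.55 in replicate 2 and 0.48 in replicate 1. The median difference was 1.83, and replicate 2 was higher in 84 of the 89. It was also higher in 288 of the 327 pairs of the 10 genes and in 70964 of all 87894 pairs. Over the 327 pairs of the 10 genes the median difference was 1.63 (SD of single pairs 1.29), and over all 87894 pairs it was 1.36. Across the UBE2K pairs, r (Pearson) was 0.86 and rho (Spearman) 0.85, beside 0.66 and 0.63 over the 10 genes and 0.52 and 0.48 over all pairs. These correlations run across clusters that share the same 4 libraries and are a description. UBE2K was chosen by its enriched clusters in these same lists, so its higher r and rho are not read as better agreement.

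**Figure D2:**
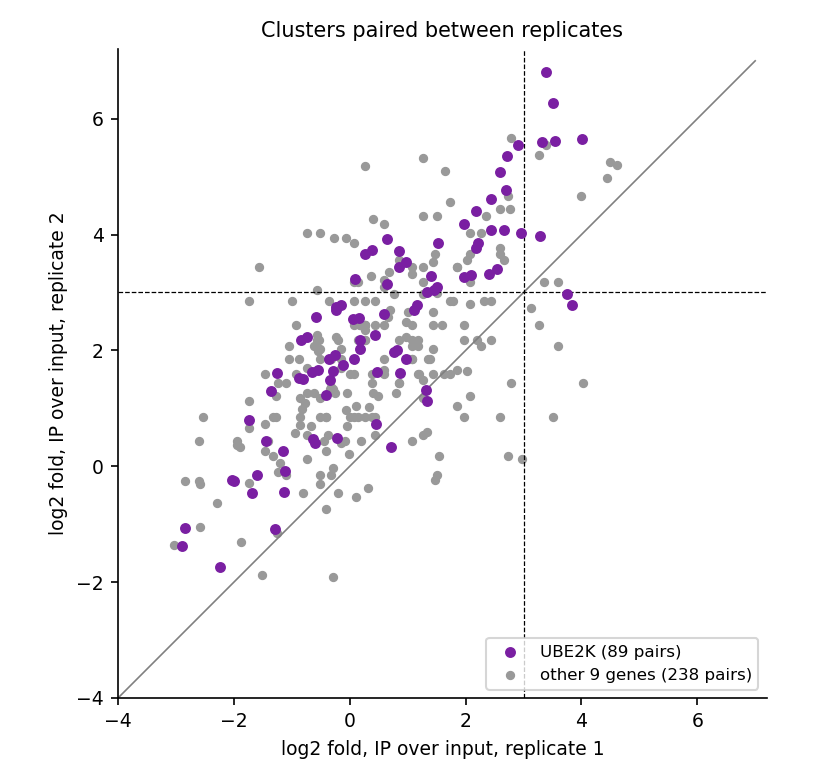
Log2 fold of IP over input in replicate 2 (vertical axis) against replicate 1 (horizontal axis) for paired clusters, purple for the 89 pairs of UBE2K and grey for the 238 pairs of the other 9 genes. The solid line marks equal folds and dashed lines a log2 fold of 3. Above the solid line lie 84 of the 89 UBE2K pairs. Over the whole series, not drawn, replicate 2 was higher in 70964 of 87894 pairs.

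Enriched clusters of UBE2K rested on more reads than those of the other 9 genes. They had a median of 163 IP reads against 4.5 input reads in replicate 1 and 36 against 4 in replicate 2. The other 9 genes had medians of 54 against 1 and 15.5 against 2, and all enriched clusters had 74 against 2 and 19 against 2. Touching clusters may share reads, so these medians can count some reads more than once. Only 2 of the 10 enriched clusters of UBE2K in replicate 1 and 4 of the 46 in replicate 2 rested on 1 input read. In the other 9 genes the share at 1 input read was 70.6% in replicate 1 and 43.8% in replicate 2, and among all enriched clusters it was 47.2% and 31.0%. Whether the level of the transcript had a part in the UBE2K counts was not tested.

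**Figure D3:**
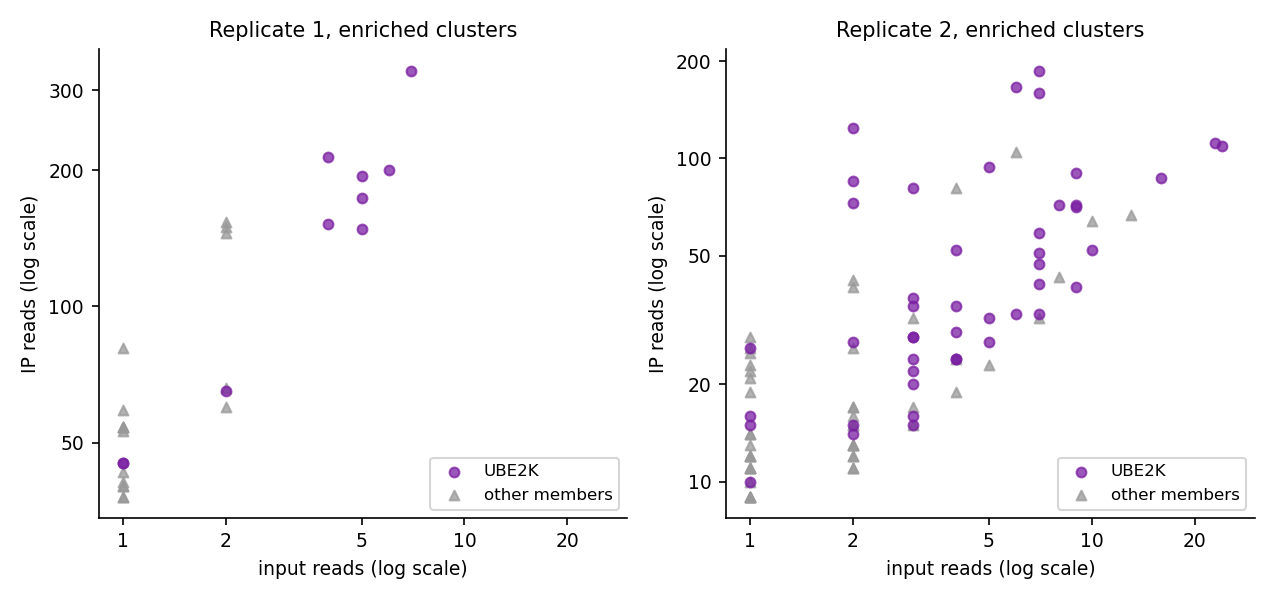
IP reads against input reads, both on log scales, for each enriched cluster of the 10 genes, replicate 1 at left (27 clusters) and replicate 2 at right (94 clusters); circles are UBE2K and triangles the other 9 genes, and the vertical scales of the panels differ. UBE2K clusters reach 332 IP reads in replicate 1 and 187 in replicate 2, while triangles are crowded at 1 and 2 input reads.

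Genes with the most similar counts to UBE2K were found by the distance of log2(count + 1) over 3 counts: enriched clusters in replicate 1, in replicate 2 and reproducible peaks. RCOR1, a corepressor subunit, was nearest with 10, 35 and 10. MED15, a Mediator subunit, had 10, 33 and 8. ABCC1, a drug efflux transporter, had 14, 37 and 9.

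Over the 10 genes, 27 clusters were enriched in replicate 1 (2.02%, interval 1.33 to 2.92) and 94 in replicate 2 (17.7%, interval 14.5 to 21.2). UBE2K accounted for 10 and 46 of these. Without it the shares were 1.52% (0.887 to 2.42) and 11.9% (8.91 to 15.5), and these intervals held the shares of all clusters, 1.39% and 12.8%. The other 9 genes together were therefore near the background. Single genes lay on either side of it. UBE2G1 was above it in replicate 1 (7.62%, interval 3.35 to 14.5). UBE2E1 was below it in replicate 2 (2.17%, interval 0.055 to 11.5). Enriched clusters appeared in 6 of the 10 genes in replicate 1, beside 14.9% of all genes with a cluster, and in 7 in replicate 2, beside 31.2%. They appeared in both replicates in 6 genes, UBE2K, UBE2H, UBE2D3, UBE2G1, UBE2W and BIRC6, beside 11.3% of all genes. These genes are long and hold many clusters, with a median of 155.5 per gene over both replicates, and no matching on that number was made.

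**Figure D4:**
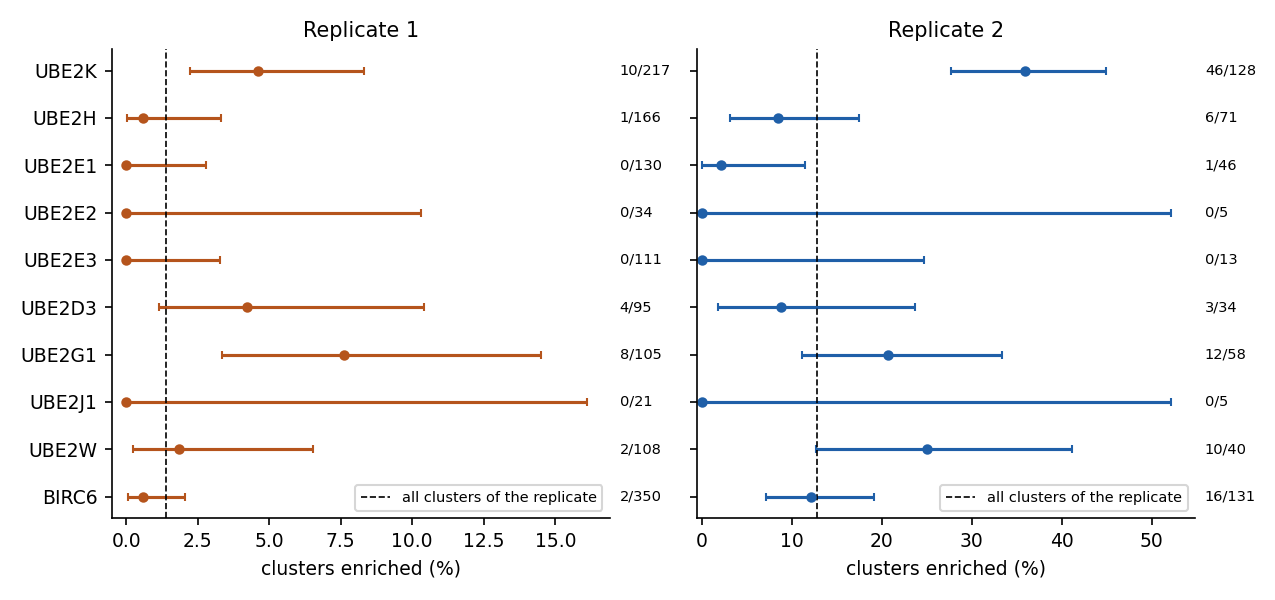
Percentage of clusters enriched in each gene (horizontal axis) with exact 95% intervals, replicate 1 at left and replicate 2 at right, with different horizontal scales; numbers at the right edge are enriched over all clusters, and dashed lines mark all clusters of the replicate, 1.39% and 12.8%. UBE2K, chosen for its replicate 2 count, is at 4.61% and 35.9%, and in replicate 1 the intervals of UBE2G1 (3.35 to 14.5) and UBE2K (2.23 to 8.31) lie above the line. In replicate 2 the interval of UBE2K (27.7 to 44.9) lies above the line and that of UBE2E1 (0.055 to 11.5) below it.

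UBE2G1, another builder of chains linked through lysine 48, had the next most enriched clusters after UBE2K, counted over both replicates. It spans chr17:4269259-4366675 on the minus strand. It had 8 enriched of 105 clusters in replicate 1 (7.62%, interval 3.35 to 14.5) and 12 of 58 in replicate 2 (20.7%, interval 11.2 to 33.4). Its share was above that of UBE2K in replicate 1 and below it in replicate 2, with intervals that overlapped each time. The reproducible peak of UBE2G1, chr17:4286751-4286824, had a log2 fold of 4.90. Replicate 1 had 81 IP reads against 1 input read there (4.61, interval 2.09 to 9.93) and replicate 2 had 81 against 4 (5.19, interval 3.78 to 7.10). The intervals of the 2 replicates overlapped at this peak.

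Both replicates also had enriched clusters of UBE2G1 at 2.97 to 3.01 kb from the gene start. Replicate 1 had 3 touching clusters there, up to 4.53 with 154 IP reads against 2 input reads, and replicate 2 had 1 at 5.25 with 21 against 1. The 3 touching clusters may share reads. RN7SL774P, another 7SL pseudogene, lies 2.22 to 2.51 kb from the start, and the nearest enriched bases lay 448 and 449 bases from it in replicates 1 and 2. The clusters that overlapped the pseudogene itself had log2 folds of 0.14 and 0.85. Whether 7SL-like sequence had a part in the neighbouring clusters was not tested.

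UBE2W attaches ubiquitin to the amino terminus of its targets. In chr8:73780096-73878862, minus strand, it had 2 enriched of 108 clusters in replicate 1 (1.85%) and 10 of 40 in replicate 2 (25%, interval 12.7 to 41.2). Its 2 reproducible peaks touch, at 5.37 and 5.41 kb from the gene start, with log2 folds of 4.05 and 4.66. Replicate 1 had 145 IP reads against 2 input reads in the higher one (4.45) and replicate 2 had 105 against 6 over the same place (4.98, interval 3.81 to 6.46). The remaining 4 stretches, from 24.92 to 73.44 kb, were enriched in replicate 2 alone, with at most 14 IP reads and 1 or 2 input reads each. The strand of UBE2W was read from its clusters, since the promoter table holds no row for it, and the same holds for UBE2H.

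UBE2D3, an E2 that works with many ligases, spans chr4:102794383-102868895 on the minus strand. It had 4 enriched of 95 clusters in replicate 1 and 3 of 34 in replicate 2. Both replicates met at 0.76 to 0.79 kb from the gene start (102868088 to 102868139). Replicate 2 had 14 IP reads against 1 input read there (4.66, interval 1.95 to 10.06). Replicate 1 had 3 touching clusters with 53, 54 and 54 IP reads against 1 input read, at log2 folds of 3.99, 4.02 and 4.02, which may be largely the same reads. No peak of UBE2D3 reached the reproducible list. Its coding sequence is close to that of UBE2D2, and the sources used here do not give how the authors treated reads that fit several places.

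BIRC6, a very large inhibitor of apoptosis that carries an E2 domain, spans chr2:32357023-32618878 on the plus strand and had the most clusters of the 10 genes. Of 350 in replicate 1, 2 were enriched (0.571%), and of 131 in replicate 2, 16 were (12.2%, interval 7.15 to 19.1). They fell into 13 stretches, 11 with replicate 2 alone, 2 with replicate 1 alone and 0 with both. Replicate 1 reached 3.59 (40 IP reads against 1 input read) at 103.18 kb, and replicate 2 reached 4.55 (26 against 2) at 203.64 kb. In BIRC6 the replicates therefore shared no enriched place, and no peak of it was in the reproducible list. Of the 16 replicate 2 clusters, 5 also lay in the span of the long noncoding RNA BIRC6-AS2. The RefSeq tables used here list no strand for it, and the plus strand it was given came from the clusters in its span.

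UBE2H, the E2 partner of the CTLH ligase, spans chr7:129830732-129952960 on the minus strand. It had 1 enriched of 166 clusters in replicate 1 and 6 of 71 in replicate 2, in 7 stretches with none shared. The highest were 4.02 in replicate 1 (54 IP reads against 1 input read) and 5.31 in replicate 2 (22 against 1, interval 2.68 to 10.68). Both rest on 1 input read, and 7 further replicate 2 clusters had a log2 fold of at least 3 with a −log10 p under 3.

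UBE2E1, UBE2E2 and UBE2E3 are closely related E2 enzymes with an extended amino terminus. UBE2E1 (chr3:23805955-23891640, plus strand) had 0 enriched of 130 clusters in replicate 1, with an exact 95% interval up to 2.8%. In replicate 2 it had 1 of 46 (2.17%, interval 0.055 to 11.5), at 3.94 with 17 IP reads against 2 input reads. UBE2E2 (chr3:23203098-23591925, plus strand) is the longest of the 10 at 388828 bases and had few clusters, 34 and 5, none of them enriched. Its highest replicate 2 fold, 3.66, came from 7 IP reads against 1 input read and had a −log10 p of 2.4. UBE2E3 (chr2:180980360-181063425, plus strand) had 0 enriched of 111 clusters in replicate 1, with an interval up to 3.27%, and 0 of 13 in replicate 2. Its highest folds were 3.02 (27 IP reads against 1 input read, −log10 p 1.94) and 1.44. UBE2J1, anchored in the endoplasmic reticulum membrane, where it serves protein quality control, had 0 of 21 and 0 of 5 over chr6:89326625-89352722 on the minus strand, with highest folds of 2.35 and 2.18. With 5 replicate 2 clusters each, UBE2E2 and UBE2J1 have exact 95% intervals up to 52.2%, so their shares are only loosely bounded.

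**Figure D5:**
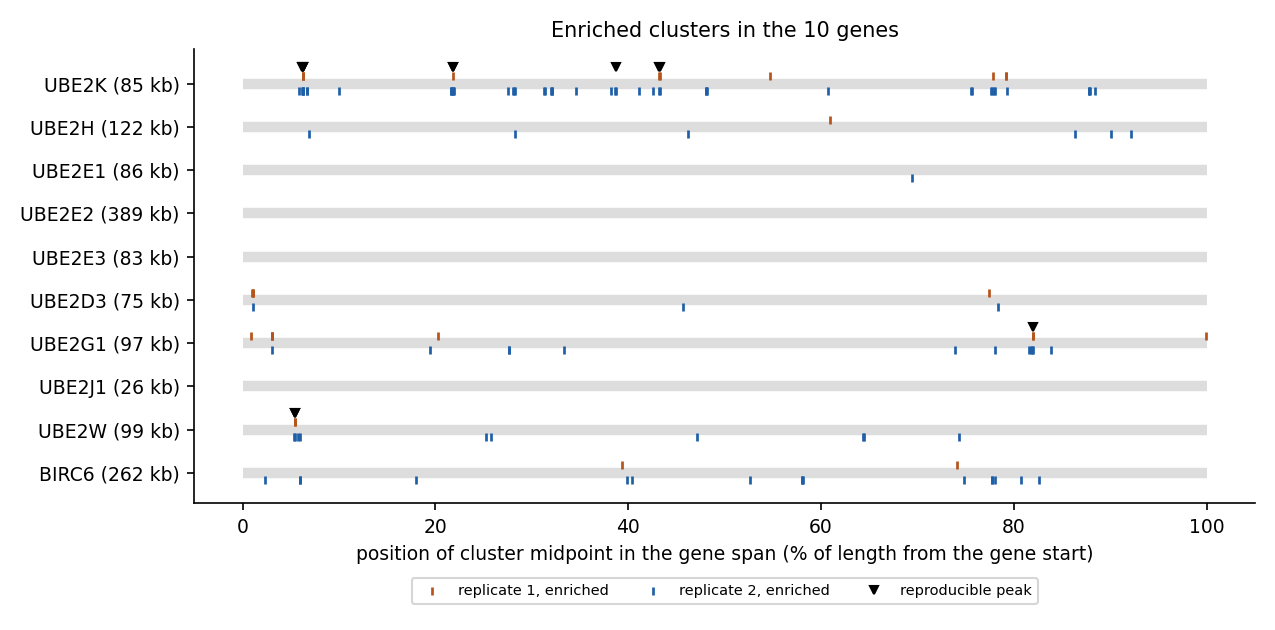
Position of each enriched cluster in the 10 genes, as a percentage of the gene length from the gene start, with replicate 1 ticks above each grey bar, replicate 2 ticks below it and triangles for the 12 reproducible peaks. UBE2K has ticks along most of its length, and the reproducible peaks lie in UBE2K, UBE2G1 and UBE2W.

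Overlap between replicates was set against all enriched clusters. In the 10 genes, 17 of the 27 enriched replicate 1 clusters were overlapped by an enriched replicate 2 cluster, 63.0% (interval 42.4 to 80.6), beside 41.9% of all enriched replicate 1 clusters. In the other direction it was 12 of 94, 12.8% (6.77 to 21.2), beside 14.0%. UBE2K had 7 of 10 and 8 of 46, and the other 9 genes had 10 of 17 and 4 of 48. The first share of the 10 genes was higher in number than the background, but its interval began at 42.4%, just above 41.9%. Neighbouring clusters are not independent, and the 27 clusters merge into 17 sites. The genes were also chosen with these lists known, so no excess over the background is read from this share. The second share was close to the background. With any overlapping cluster of the other replicate allowed, the first and second shares became 88.9% and 89.4%, beside 64.0% and 88.4%.

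Other genes of the ubiquitin pathway were counted in lists drawn from general knowledge. Among all genes with a cluster, 14.9% had an enriched one in replicate 1, 31.2% in replicate 2 and 11.3% in both, and the lists were not matched to them on cluster number. Of 32 other E2 enzymes and variants, 27 had a cluster, 8 an enriched cluster in replicate 1, 15 in replicate 2 and 6 in both. Over the list, 1.10% and 11.3% of clusters were enriched, near the background. Only UBE2L3, an E2 for HECT and parkin-type ligases, had reproducible peaks among these 32 genes, 3 of them up to a log2 fold of 3.81, with 1 and 13 enriched clusters. UBE2D2, the near relative of UBE2D3, had 2 and 15, and UBE2R2, an E2 of cullin ligases, had 3 and 10.

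Among 9 E1 genes, 8 had a cluster, 2 an enriched cluster in replicate 1, 6 in replicate 2 and none a reproducible peak. The shares of enriched clusters were 0.554% and 13.8%, beside 1.39% and 12.8% of all clusters. ATG7, the E1 of autophagy conjugation, and SAE1, a subunit of the SUMO E1, had 0 and 11 each, and UBA2, the other SUMO subunit, had 2 and 6.

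CTLH ligase genes, whose products work with UBE2H, all had clusters. Of these 11 genes, 7 had an enriched cluster in replicate 1, 7 in replicate 2 and 6 in both, with shares of clusters of 2.72% and 15.9%, beside 1.39% and 12.8% of all clusters. MKLN1, a CTLH subunit, had 3 reproducible peaks up to 5.32, with 5 and 12 enriched clusters, while RANBP9 had 6 and 12 and RANBP10 4 and 10. UBE2H itself had 1 and 6. Of 9 genes of quality control at the endoplasmic reticulum, 1 had an enriched cluster in replicate 1 and 3 in replicate 2, with shares of clusters of 0.493% and 10.0%, beside the same 1.39% and 12.8%. The ligase MARCHF6 had 2 and 3, and DERL1, a channel component, had 0 and 2. UBE2K itself had 4.61% and 35.9%.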

How the data were processed

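eCLIP of ADAR in K562 was analysed from 3 deposited peak lists: clusters of replicate 1, of replicate 2, and a list that combines them. Tools named, per the submitters' processing notes, were STAR 2.4.0i and cutadapt 1.9. The peak caller, and how replicates were combined, are not given in the sources used here. Each deposited row gives a log2 fold of IP over input made by the authors. It also gives a deposited −log10 p made by the authors, with 400 as its limit. Coordinates fit GRCh38, since clusters on chromosome 17 reach 83224967, and are given from 1.

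Clusters were assigned to RefSeq gene spans (GRCh38.p14) by midpoint and strand, the strand taken from the RefSeq promoter table or, with no row there, from at least 5 clusters of which 80% shared it. IP and input reads were recovered as the whole numbers whose ratio, less a depth constant, gave the fold within 1e-06 and whose test gave the p, an exact binomial test where a count was under 5 and a corrected chi-square test otherwise. The constant rests on reading the commonest fold as 3 reads of IP for 1 of input. Reads were recovered for 100% of the enriched clusters of the 10 genes, and for 98.1% and 99.4% of all enriched clusters. The method was tested on simulated data made with the same tests and a known constant. That simulation could check the arithmetic alone, and neither the constant nor the authors' own test. Reads are not shown to be independent molecules, so intervals, also those for 0 enriched clusters, cover counting error only. Python 3.11.15, numpy 2.4.6, pandas 2.3.3 and scipy 1.17.1 were used.

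The 10 genes, the gene lists and the rules were chosen with earlier results of these data known. All 10 genes are named; in other lists, genes with a reproducible peak and then those with most enriched clusters in replicate 2, up to 3 a list. Results of some listed genes are not reported here. No test was run. Alternatives were other thresholds, overlap rules, gene assignment, merging and single replicates.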

Additional observations from a re-analysis of the deposited data

Results flagged for a closer look

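One enriched cluster lay on the strand opposite to a gene of the set, and such clusters were not used above. In the UBE2D3 span, replicate 2 had a plus-strand cluster at chr4:102834783-102834910 with 9 IP reads against 1 input read, a log2 fold of 4.02 (95% interval 1.17 to 9.48). It lies in the span of UBE2D3-AS1, a long noncoding RNA on the plus strand. The enriched minus-strand cluster of UBE2D3 at 102834818 to 102834939 overlaps it and had the same 9 IP reads against 1 input read. Replicate 1 had a plus-strand cluster there with 12 IP reads against 1 input read, a log2 fold of 1.85 that was not enriched. Both replicate 2 calls rest on the smallest number of IP reads at which a cluster was called enriched.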

How the results depend on the processing

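The counts moved with the thresholds. Replicate 1 had 45 enriched clusters in the 10 genes at a log2 fold of 2, 9 at 4 and 14 at a −log10 p of 5, against 27 as reported. Replicate 2 had 47 at a log2 fold of 4, against 94. Merging touching intervals left 17 sites in replicate 1 and 7 reproducible sites. Without UBE2K, an alternative chosen after seeing the data, 17 and 48 enriched clusters and 3 reproducible peaks were left. With at least 2 recovered input reads, also chosen afterwards, replicate 1 had 13. The share of replicate 2 clusters overlapped by replicate 1 was 21.3% at a log2 fold of 2. When any cluster counted, the shares were 88.9% and 89.4%. Genes with an enriched cluster ranged from 6 to 7 when 1 replicate was left out. These shifts follow from how each alternative is built. The other 28 values stayed within 1.5 times for counts and within the 95% binomial interval for shares and for the median difference. The widest among them were 127 and 67 enriched replicate 2 clusters at a log2 fold of 2 and a −log10 p of 5, 4 genes enriched in both replicates at that p, and a replicate 1 overlap of 80% at a log2 fold of 2. Few clusters lay in UBE2E2 and UBE2J1, and many calls outside UBE2K rest on 1 input read. No paired analysis was possible because each deposited fold already sets an IP library against the input of the same number.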
